A study of Rattus norvegicus with 26 samples.

Results

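The proteasome genes were examined in the dentate gyrus (DG), a subregion of the hippocampus, of male F344 rats. The members were the genes whose symbols name core (Psma, Psmb) and regulatory (Psmc, Psmd) subunits of the proteasome, its inhibitor Psmf1 and the assembly chaperones Psmg1 to Psmg4, with a mean normalized count of at least 5. The immunoproteasome subunits Psmb8, Psmb9 and Psmb10 were kept apart. The rule gave 40 of the 17910 genes of the table, and all 40 were among the 15595 genes that passed the same minimum and were tested. Of these, 15 belonged to the core particle, 17 to the regulatory particle, and 8 were chaperones or the inhibitor.

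Polyadenylated RNA from each of 26 rats was sequenced to ask what doxorubicin (Dox), a chemotherapy drug, did to the DG, and what changed when a senolytic, a drug meant to remove senescent cells, was added. All rats were 6 months old by their labels. In the Dox group (n = 8), Dox was injected intraperitoneally at 2 mg/kg, weekly over 4 weeks. The Dox + ABT rats (n = 8) received the same Dox plus 12 mg/kg of the BCL-2 family inhibitor ABT-263 by gavage on 5 consecutive days every other week. The Veh group (n = 10) received vehicle and belonged to a running study of brain aging, and no group received ABT-263 without Dox.

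The proteasome breaks down proteins that carry chains of ubiquitin. Its core particle is a barrel of stacked alpha and beta rings in which some of the beta subunits cut peptide bonds, and its regulatory particle has a base, with a ring of ATPases that unfold the substrate, and a lid that removes ubiquitin. Chaperones assemble both particles, and the transcription factor Nfe2l1 raises many subunit genes together when proteasome capacity falls short. In neurons, protein breakdown by the proteasome is known to take part in synaptic plasticity.

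Promoters of 5 members are shown because their genes bear on the results. Psmc3, Psmd2 and Psmd3 were the members below the threshold in Dox + ABT rats, and Psmb5 and Psmb6 encode catalytic subunits and hold a match to the antioxidant response element. Each line gives the 120 bases before the annotated gene start, 5′ to 3′ on the gene's strand, from RefSeq on GRCr8, a newer build than the rn6 used for the counts. Capitals mark TGACNNNGC, the letters searched for the antioxidant response element to which Nfe2l1 binds, and CCAAT, the box bound by NF-Y.
Psmc3: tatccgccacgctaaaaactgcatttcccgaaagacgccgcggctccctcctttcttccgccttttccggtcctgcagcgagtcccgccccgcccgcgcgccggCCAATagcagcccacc
Psmd2: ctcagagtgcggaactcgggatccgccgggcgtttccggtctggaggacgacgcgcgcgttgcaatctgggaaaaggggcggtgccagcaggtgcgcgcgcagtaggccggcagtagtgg
Psmd3: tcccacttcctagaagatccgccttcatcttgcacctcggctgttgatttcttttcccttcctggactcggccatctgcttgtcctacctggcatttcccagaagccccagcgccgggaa
Psmb5: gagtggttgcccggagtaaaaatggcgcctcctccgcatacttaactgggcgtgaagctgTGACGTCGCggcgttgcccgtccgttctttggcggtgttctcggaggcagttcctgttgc
Psmb6: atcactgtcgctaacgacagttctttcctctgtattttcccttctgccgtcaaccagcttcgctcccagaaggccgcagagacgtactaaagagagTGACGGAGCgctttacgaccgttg
The windows lie at chr3:97487523-97487642 (plus strand), chr11:93763389-93763508 (minus strand), chr10:84139818-84139937 (plus strand), chr15:32047380-32047499 (minus strand) and chr10:55737768-55737887 (plus strand). The match began 60 bases before the start of Psmb5 and 24 bases before that of Psmb6, and the CCAAT of Psmc3 began 16 bases before its start. RefSeq promoters from 250 bases before to 50 after the start were matched for 35 members, and Psma7, Psmb11, Psmd6, Psmd12 and Psmd14 were not matched. TGACNNNGC stood on either strand in 7 of these 35, in Psma3, Psmb2, Psmb5, Psmb6, Psmd1, Psmd3 and Psmd9, or 20% beside 12.1% of all 33469 promoters of the table. CCAAT stood in 18 of 35, or 51.4% beside 37.5%. The match in Psmd3 lay after the gene start, outside the stretch shown. The looser TGANNNNGC, which includes every TGACNNNGC, stood in 19 of 35 beside 40.5% of all promoters.

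The libraries held an estimated 10109100 to 24314700 reads. They fell into 2 kinds along the first component of the variation within groups, which held 28.3% of it. Of the Veh rats 4 were of the first kind and 6 of the second, of the Dox rats 5 and 3, and of the Dox + ABT rats 7 and 1. Ribosomal protein genes made up 0.609 to 1.20% of a first-kind library and 1.27 to 2.03% of a second-kind library, and mitochondrial genes 6.05 to 13.04% and 8.59 to 17.1%. Granule cell markers were present in all groups, with summed normalized counts of 8177 to 13395, and choroid plexus markers were low, at 6.92 to 345. Compared with Veh, 3 of 3 astrocyte, 2 of 4 microglia and 1 of 3 oligodendrocyte markers were lower in Dox at p below 0.01. In Dox + ABT, 1 of 4 granule cell markers (C1ql2), 1 of 3 astrocyte and 1 of 4 microglia markers were lower. Their part in the results for proteasome genes was not tested, and in bulk tissue fewer cells of a type and less RNA per cell cannot be told apart.

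In Dox relative to Veh, expression of the proteasome genes did not pass the test. Called here means p below 0.01 without adjustment, the study's threshold, in a limma fit across all tested genes on log2(normalized count + 1). None of the 40 members was called (limma), and 0 had an unadjusted p below 0.05, where 2.87% and 10.2% of all tested genes passed these thresholds. The smallest adjusted p of a member was 0.574 (limma, Benjamini-Hochberg), while 0.0192% of all genes had an adjusted p below 0.05. The median log2 fold change was -0.05 over the members beside 0.005 over all tested genes, and 27 of the 40 were below 0. The median was -0.03 for the core and -0.05 for the regulatory particle. Scaling every library to the same total turned the members' median to 0.04 and moved that of all genes to 0.098. The largest values on each side were -0.31 ± 0.20 (SE) for Psmg1, a chaperone of the alpha ring, and 0.23 ± 0.14 for Psmd9, a chaperone of the base.

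Psmb5, Psmb6 and Psmb7, the catalytic subunits with chymotrypsin-like, caspase-like and trypsin-like activity, ranged widely among Veh rats. Psmb5 had a lowest, median and highest normalized count of 1118, 2788 and 3415 in Veh and of 1748, 2162 and 3470 in Dox. Psmb7 had 1225, 2834 and 3475 in Veh and 1752, 2092 and 3434 in Dox. In both genes the Dox range lay almost wholly within the Veh range, which reached lower. Psmb6 had 12.8, 126 and 166 in Veh and 58.2, 83.1 and 144 in Dox, and the lowest value came from Veh replicate 11. Its mean normalized count over all rats was 95.7, and whether its gene model or reads shared with near-identical copies affect that count was not tested, so its values are uncertain. The log2 fold changes of Psmb5, Psmb6 and Psmb7 were -0.08 ± 0.18, -0.14 ± 0.33 and -0.14 ± 0.16, all smaller than their errors.

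The other members with the smallest p in this comparison were Psma4, Psmc5 and Psmg1 beside Psmd9. Psma4, an alpha ring subunit, had 636, 809 and 951 in Veh and 712, 884 and 1132 in Dox, and 3 Dox rats lay above every Veh rat. Psmc5, an ATPase of the base, had 1690, 3342 and 4260 in Veh and 1701, 2091 and 4603 in Dox. Psmg1 had 220, 449 and 647 in Veh and 219, 261 and 549 in Dox. Psmd9 had 277, 398 and 480 in Veh and 334, 415 and 718 in Dox. The Dox and Veh ranges overlapped in all 4 genes.

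In Dox + ABT relative to Veh, 3 members were lower and 0 higher at p below 0.01, all 3 in the regulatory particle. They were Psmc3, an ATPase of the base, Psmd2, a scaffold of the base that binds ubiquitin-like proteins, and Psmd3, a lid subunit. Of all tested genes 3.95% were called lower and 3.89% higher. At p below 0.05, 13 of 40 members were lower, 5 in the core and 8 in the regulatory particle, beside 11.4% of all tested genes. None had an adjusted p below 0.05 (smallest 0.109, limma, Benjamini-Hochberg), nor did any gene of the table, 0% of all.

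Psmc3 had a lowest, median and highest normalized count of 1978, 3585 and 4146 in the Veh rats. The Dox rats had 2063, 2397 and 4284, and the Dox + ABT rats 1818, 2064 and 2701. All 8 Dox + ABT rats lay below the Veh median and 3 lay below every Veh rat. That median lay above every Veh library of the first kind (highest 2353), and 7 of the 8 Dox + ABT libraries were of that kind. The log2 fold change of Psmc3 for Dox + ABT versus Veh was -0.55 ± 0.17 (SE, p = 0.00289, adjusted p = 0.109, limma). Psmd2 had 3290, 4326 and 4735 in Veh rats, 3297, 3895 and 5112 in Dox rats and 3190, 3318 and 3902 with Dox + ABT. Again all 8 Dox + ABT rats lay below the Veh median and 3 below every Veh rat, with a log2 fold change of -0.27 ± 0.09 (p = 0.00576, adjusted p = 0.115). Psmd3 had 1900, 2625 and 2889 in Veh rats, 2083, 2465 and 2696 in Dox rats and 1933, 2060 and 2367 with Dox + ABT. No Dox + ABT rat lay below the lowest Veh rat, which was Veh replicate 11, and the log2 fold change was -0.23 ± 0.08 (p = 0.00798, adjusted p = 0.120). Over the 26 fits that each left out 1 rat, the call of Psmc3 was kept in all, that of Psmd2 was lost in 8 (p up to 0.0125) and that of Psmd3 in 12 (p up to 0.0183).

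**Figure D1:**
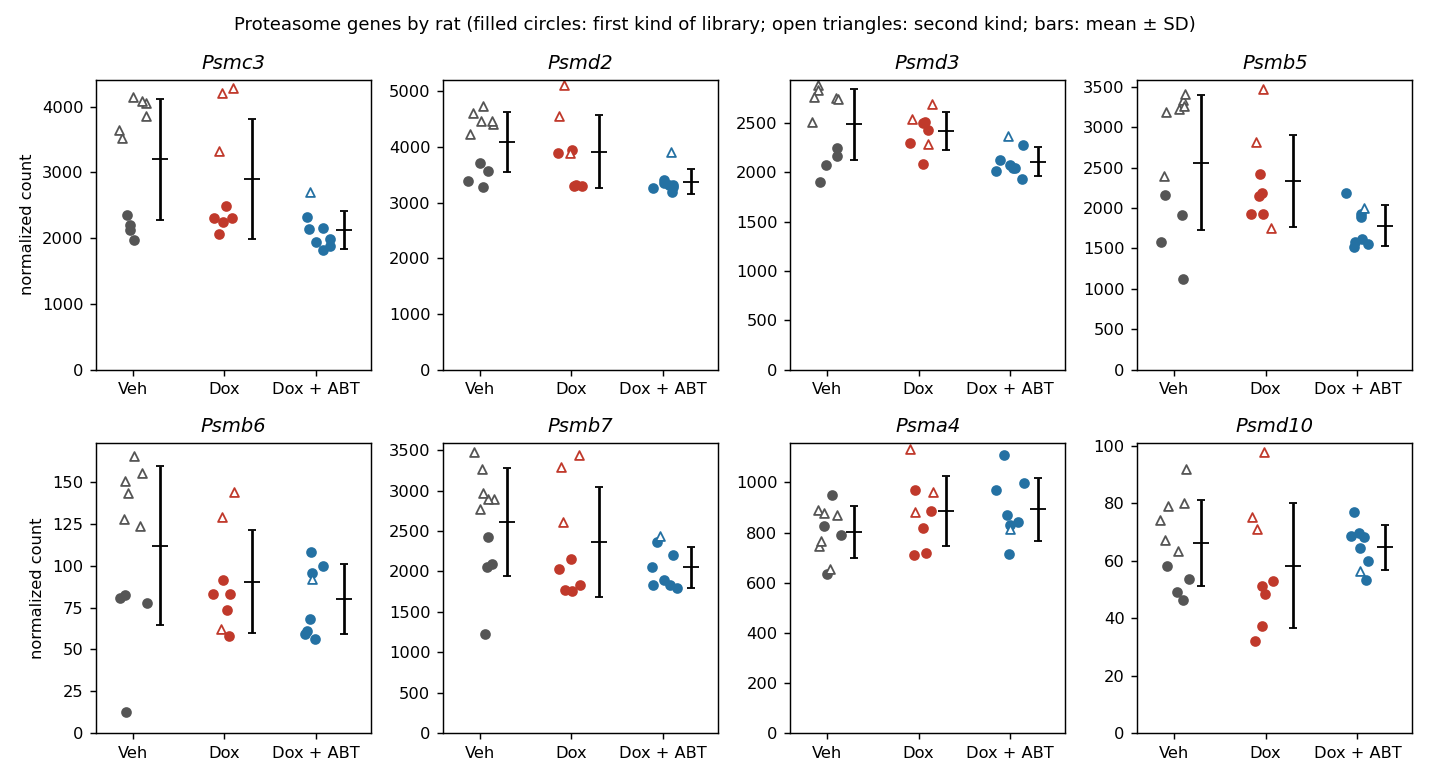
Normalized counts (y axis, from 0) of 8 proteasome genes in each rat of the Veh (n = 10), Dox (n = 8) and Dox + ABT (n = 8) groups, with mean ± SD beside the points; filled circles are libraries of the first kind and open triangles of the second. For Psmc3 the second kind stood apart from the first in Veh (3524 to 4146 against 1978 to 2353) and in Dox (3320 to 4284 against 2063 to 2485), while Psma4 showed no such gap.

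Members with lower values at p below 0.05 were found in several roles. In the base, all 6 ATPases had negative log2 fold changes, from -0.55 in Psmc3 to -0.07 in Psmc4, and Psmc1 (-0.49 ± 0.19) and Psmc5 (-0.52 ± 0.20) were below p 0.05. The scaffold Psmd1 (-0.54 ± 0.24) and the ubiquitin receptor Psmd4 (-0.35 ± 0.14) were below p 0.05 as well. In the lid, Psmd12 (-0.31 ± 0.13) was below p 0.05 beside Psmd3, while Psmd14, the enzyme that takes ubiquitin chains off the substrate, was at -0.22 ± 0.12 (p = 0.0860). Psmd11 and Psmd8 were at 0.02 and 0.01.

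In the core, the beta ring had a median of -0.32 and the alpha ring of -0.13. Psmb1 (-0.34 ± 0.15), Psmb4 (-0.40 ± 0.19), Psmb5 (-0.45 ± 0.18) and Psmb11 (-0.61 ± 0.23) were below p 0.05 in the beta ring, and Psma1 (-0.19 ± 0.09) in the alpha ring. Psmb5 had 1513, 1753 and 2187 in Dox + ABT, all 8 rats below the Veh median of 2788. Psmb7 had 1795, 1974 and 2436, with a log2 fold change of -0.30 ± 0.16 (p = 0.0716). Psmb6 had 56.1, 80.2 and 109, with -0.29 ± 0.33. Psma7, of the alpha ring, had 1263, 1986 and 2459 in Veh and 1412, 1542 and 1815 with Dox + ABT. The ATPase Psmc1 had 2135, 4294 and 5013 in Veh and 2270.2, 2415 and 3493 with Dox + ABT. In Psma7 and Psmc1 all 8 Dox + ABT rats lay below the Veh median and none below the lowest Veh rat. Psmb11, known as a thymus-specific subunit, was near the minimum, with 7.51, 18.3 and 24.9 in Veh rats, 8.54, 14.1 and 21.8 in Dox rats and 7.62, 9.95 and 15.8 with Dox + ABT.

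The median log2 fold change over all 40 members was -0.20, beside -0.0009 over all tested genes, and 32 of 40 members were below 0. The core had a median of -0.21, the regulatory particle of -0.23 and the chaperones and inhibitor of -0.07. The core and regulatory medians thus differed by 0.01. The 3 chaperones of the regulatory particle, Psmd5, Psmd9 and Psmd10, had values of 0.04, 0.02 and -0.01. When every library was scaled to the same total, the median over all genes moved to 0.17 and that of the members to -0.03. This left the members 0.20 below all genes. No member was called in that fit, beside 0.589% of all tested genes called lower and 12.3% higher.

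In Dox relative to Dox + ABT, 36 of 40 members had positive values, with a median log2 fold change of 0.17 beside -0.001 over all tested genes. This comparison shares its Dox + ABT rats with the previous one. None of the members was called (limma), where 4.03% of all tested genes were, and 4 had p below 0.05, all higher in Dox, beside 6.71% of all tested genes higher at that level. They were Psmc3 (0.41 ± 0.18), Psmd2 (0.20 ± 0.09), Psmd3 (0.20 ± 0.08) and the lid subunit Psmd6 (0.19 ± 0.08). Psmd6 had 1147, 1482 and 1593 in Dox and 1089, 1182 and 1418 in Dox + ABT, and 4 Dox rats lay above every Veh rat, of which the highest was 1489. The smallest adjusted p was 0.324, and 0% of all genes were below 0.05.

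Members also varied in spread. The coefficient of variation (SD over mean) had a median over the members of 22.3% in Veh rats, 21.6% in Dox rats and 11.8% with Dox + ABT, and for 37 of 40 members it was larger in Veh than in Dox + ABT. Over all tested genes the medians were 21.1%, 21.5% and 16.9%, and 67.7% of genes had the larger value in Veh. Of the Dox + ABT libraries 7 of 8 were of the first kind, beside 4 of 10 in Veh and 5 of 8 in Dox. The part of the kinds in the spread was not tested. The widest spread belonged to Psmd1, whose Dox rats reached from 1619 to 6714, and to Psmb6. The Dox values of Psmd1 were 1619 to 1942 in the first kind and 3685 to 6714 in the second. The narrowest spread belonged to Psmd5, a chaperone of the base. It had 364 to 480 in Veh rats, 360 to 448 in Dox rats and 384 to 492 with Dox + ABT.

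The library kinds moved with these values. Psmc3 ranged from 1978 to 2353 in the 4 Veh libraries of the first kind and from 3524 to 4146 in the 6 of the second. In Dox, it ranged from 2063 to 2485 in 5 libraries of the first kind and from 3320 to 4284 in 3 of the second. In Dox + ABT, 7 libraries of the first kind held 1818 to 2318 and the single library of the second kind, replicate 4, held 2701. Psmb5 showed the same order in Veh, with 1118 to 2164 in the first kind and 2393 to 3415 in the second, but not in Dox, where the lowest rat, at 1748, was of the second kind.

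The first kind held 4 Veh, 5 Dox and 7 Dox + ABT libraries. Within it alone, the members' median log2 fold change in Dox + ABT against Veh was 0.08, beside 0.002 over all genes. Psmc3, Psmd2 and Psmd3 were at -0.09 ± 0.08, -0.08 ± 0.07 and -0.02 ± 0.07. Of the 4 Veh libraries 1 was Veh replicate 11. As a mean over the members of log2 deviations from the mean of all rats, it was at -0.52, beside a median of -0.15 over the 4. Its part in the values within the first kind was not tested. No member was called, beside 1.1% of all tested genes, and 2 were below p 0.05, beside 5.86%. For Dox versus Veh within the first kind, 2 members were called, both higher (Psmb3 and Psmg4), beside 4.76% of all tested genes. Veh replicate 11 was the lowest Veh rat in both genes (491 and 93.7). For Dox versus Dox + ABT, 1 was called, Psmd10, lower in Dox, beside 8.21%. Within the second kind, Dox versus Veh called 0 members (limma), beside 3.57% of genes, with 3 below p 0.05, beside 13.4%. The second kind held too few Dox + ABT libraries for the other comparisons.

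The share of normalized counts from 76 ribosomal protein genes served as a measure of this variation. Its lowest, median and highest values were 0.609, 1.51 and 2.03% in Veh rats, 0.826, 1.09 and 1.76% in Dox rats and 0.917, 0.990 and 1.27% with Dox + ABT. The groups overlapped. The mean log2 share was lower by 0.20 in Dox (exact two-sided permutation p = 0.395, adjusted over 3 comparisons 0.395) and by 0.35 in Dox + ABT (exact p = 0.0923, adjusted 0.277) than in Veh, and higher by 0.16 in Dox than in Dox + ABT (exact p = 0.329, adjusted 0.395). Leaving out Veh replicate 11, the library with the lowest share, gave exact p = 0.00683 for Dox + ABT versus Veh, unadjusted. Without Veh replicate 10 exact p was 0.0469, and over the 18 such tests it reached 0.158, without Veh replicate 2. Within the first kind, which held Veh replicate 11, the differences turned in sign. They were 0.07 in Dox versus Veh, 0.14 in Dox + ABT versus Veh and -0.07 in Dox versus Dox + ABT. Within the second kind Dox versus Veh was at -0.11.

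Proteasome genes rose with this share. In the fit that held group and the log2 share, 33 of 40 members rose with it at p below 0.01 and 0 fell, where 19.4% of all tested genes rose and 16.2% fell. All 40 slopes were positive, with a median of 0.44 on the log2 scale per doubling of the share beside 0.01 over all tested genes. The median slope was 0.50 in the core, 0.42 in the regulatory particle and 0.33 in the chaperones and inhibitor. Both measures come from the same libraries and scaling. When every library was scaled to the same total, 21 members rose, beside 11.2% of all tested genes that rose and 23.9% that fell. Without Veh replicate 11, 26 rose, beside 16.3% of all tested genes. Within the first kind alone 16 of 40 rose, beside 6.22%, with a median slope of 0.42. Within the second kind, with 9 libraries, 0 of 40 rose at p below 0.01 (limma), beside 0.25% of all tested genes, and 2 at p below 0.05, beside 1.5%, with a median of 0.38.

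Markers of several cell types rose with the share as well. All 3 red cell markers did, with slopes of 2.28 to 2.79 (Hbb, Hba-a2 and Alas2), and so did 2 of 4 microglia markers (Aif1, 0.68, and Csf1r, 0.56), 1 of 3 astrocyte markers (Gfap, 0.56) and 1 of 3 oligodendrocyte markers (Mbp, 0.55). Of the 4 granule cell markers C1ql2 rose (0.36) and Prox1 fell (-0.59), and none of the CA field, endothelial or choroid plexus markers fitted was called. The red cell markers summed to 1539.8 to 17771 in Veh, 2415 to 90336 in the Dox group and 2457 to 8330.0 with Dox + ABT. Given the share, all 3 were called higher in Dox than in Veh, beside 1.2% of all tested genes. Alas2 was at 1.67 ± 0.39, Hba-a2 at 1.60 ± 0.43 and Hbb at 1.33 ± 0.36 (limma p up to 0.000853, adjusted p up to 0.153). Their part in the slopes of the proteasome genes was not tested.

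The fitted slopes varied among the members of 1 particle, and differences between slopes were not tested. In the beta ring, Psmb6 (1.47 ± 0.21, from its uncertain counts), Psmb4 (0.99 ± 0.08), Psmb5 (0.85 ± 0.10), Psmb7 (0.80 ± 0.08), Psmb1 (0.80 ± 0.06) and Psmb3 (0.50 ± 0.13) rose with the share, while Psmb2 and Psmb11 were at 0.17 ± 0.14 and 0.17 ± 0.24. In the alpha ring, Psma6 (0.74 ± 0.07), Psma7 (0.66 ± 0.07), Psma3l (0.49 ± 0.14), Psma5 (0.41 ± 0.10), Psma1 (0.38 ± 0.07) and Psma2 (0.27 ± 0.08) rose, and Psma4 was at 0.18 ± 0.10. The name Psma3l is that of the table, and RefSeq gives it as a synonym of Psma3. The median slope was 0.80 in the beta ring and 0.41 in the alpha ring, and the difference between the rings was not tested.

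In the regulatory particle, the 6 ATPases all rose. Psmc5 (1.01 ± 0.09), Psmc1 (0.99 ± 0.07), Psmc3 (0.85 ± 0.08) and Psmc2 (0.80 ± 0.10) had slopes above those of Psmc6 (0.42 ± 0.08) and Psmc4 (0.31 ± 0.06). In the rest of the base, Psmd1 (1.09 ± 0.15), Psmd4 (0.69 ± 0.08) and Psmd2 (0.39 ± 0.06) rose. The lid had the lower slopes, with a median of 0.28. Psmd12 (0.65 ± 0.07) and Psmd14 (0.62 ± 0.06) led it, followed by Psmd7, Psmd3, Psmd13, Psmd6 and Psmd8, from 0.30 down to 0.22. Psmd11, at 0.18 ± 0.07, was below p 0.05 but not 0.01.

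Among the chaperones, Psmg1 (0.94 ± 0.12), Psmd10 (0.69 ± 0.13), Psmg4 (0.47 ± 0.14) and Psmg2 (0.34 ± 0.10) rose, as did the inhibitor Psmf1 (0.32 ± 0.10). Psmg3 (0.22 ± 0.12), Psmd5 (0.11 ± 0.07) and Psmd9 (0.09 ± 0.15) did not pass the test. Psmf1 itself had 432, 616 and 821 in Veh rats, 476, 564 and 740 in Dox rats and 448, 539 and 676 with Dox + ABT.

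**Figure D2:**
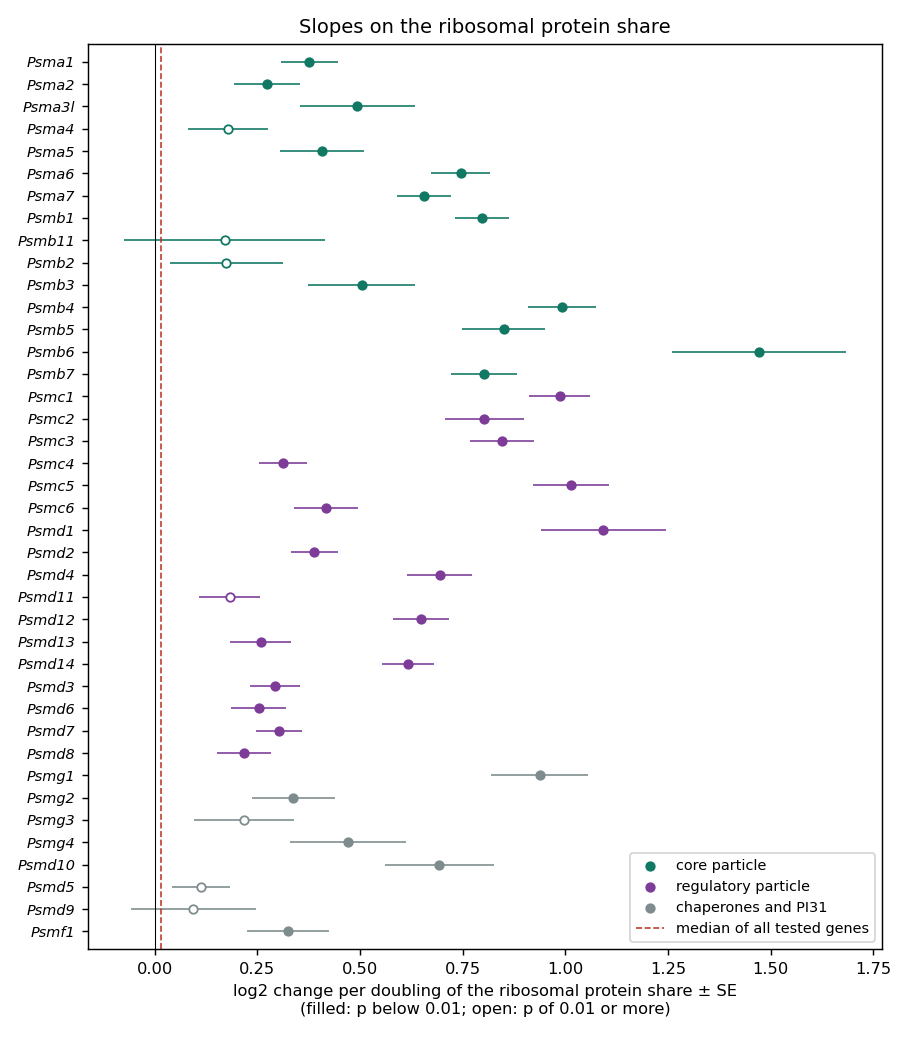
Log2 change of each of the 40 proteasome genes per doubling of the ribosomal protein share, with SE (x axis), by gene (y axis), from the limma fit with group and share over 26 rats; filled points have p below 0.01 and the dashed line is the median of all tested genes. All 40 points lie above 0, from 0.09 in Psmd9 to 1.47 in Psmb6.

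With the share in the fit, the members' median log2 fold change moved from -0.20 to -0.02 for Dox + ABT versus Veh and from 0.17 to 0.06 for Dox versus Dox + ABT. For Dox + ABT versus Veh 23 of 40 members were below 0. Psmc3 was the only member called, at -0.25 ± 0.08 (p = 0.00416, adjusted p = 0.396), beside 2.5% of all tested genes, and 4 members (10%) were below p 0.05 beside 10.5% of all tested genes. Without Veh replicate 11 the value of Psmc3 was -0.14 (p = 0.0872), and without Dox + ABT replicate 3 it was -0.22 (p = 0.0107). The 4 members were Psmc3, Psmd2 (-0.13 ± 0.06), Psmb11 (-0.55 ± 0.24) and, higher in Dox + ABT, Psma4 (0.22 ± 0.10). Psma4 had 713, 856 and 1109 in Dox + ABT, against 636, 809 and 951 in Veh. Psmd3 was at -0.12 ± 0.06 (p = 0.0543).

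For Dox versus Veh with the share in the fit, 0 of 40 members were below p 0.01 or 0.05 (limma), beside 2.97% and 9.11% of all tested genes. The median moved from -0.05 to 0.06, and 31 of 40 members were above 0. The smallest p values belonged to Psmd7, a lid subunit (0.10 ± 0.05, p = 0.0715), Psma4 (0.17 ± 0.09, p = 0.0719), Psmb3, a beta ring subunit without catalytic activity (0.22 ± 0.13, p = 0.0904), and Psmd9 (0.25 ± 0.14, p = 0.0963). Psmb3 had 491, 993 and 1333 in Veh and 872, 1006 and 1407 in Dox. Psmd7 had 1499.7, 1799.9 and 1957 in Veh and 1532, 1786 and 2105 in Dox. The Veh and Dox rats overlapped in both.

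For Dox versus Dox + ABT with the share in the fit, Psmc3 was the only member called, at 0.28 ± 0.08 (p = 0.00154, adjusted p = 0.118), beside 4.96% of all tested genes. At p below 0.05 there were 8 members (20%) beside 14.5% of all tested genes. Psmc3, Psmd2, Psmd3, Psmd6, Psmb4 and Psmb5 were higher in Dox, and the chaperones Psmd5 and Psmd10 were lower. Psmd10 had 46.2, 65.2 and 92.0 in Veh rats, 32.2, 52.0 and 97.7 in Dox rats and 53.4, 66.3 and 77.1 with Dox + ABT, and 2 Dox rats lay below every Veh rat. Its difference was -0.33 ± 0.13 with the share in the fit and -0.22 ± 0.18 without it. The median over the members was 0.06.

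**Figure D3:**
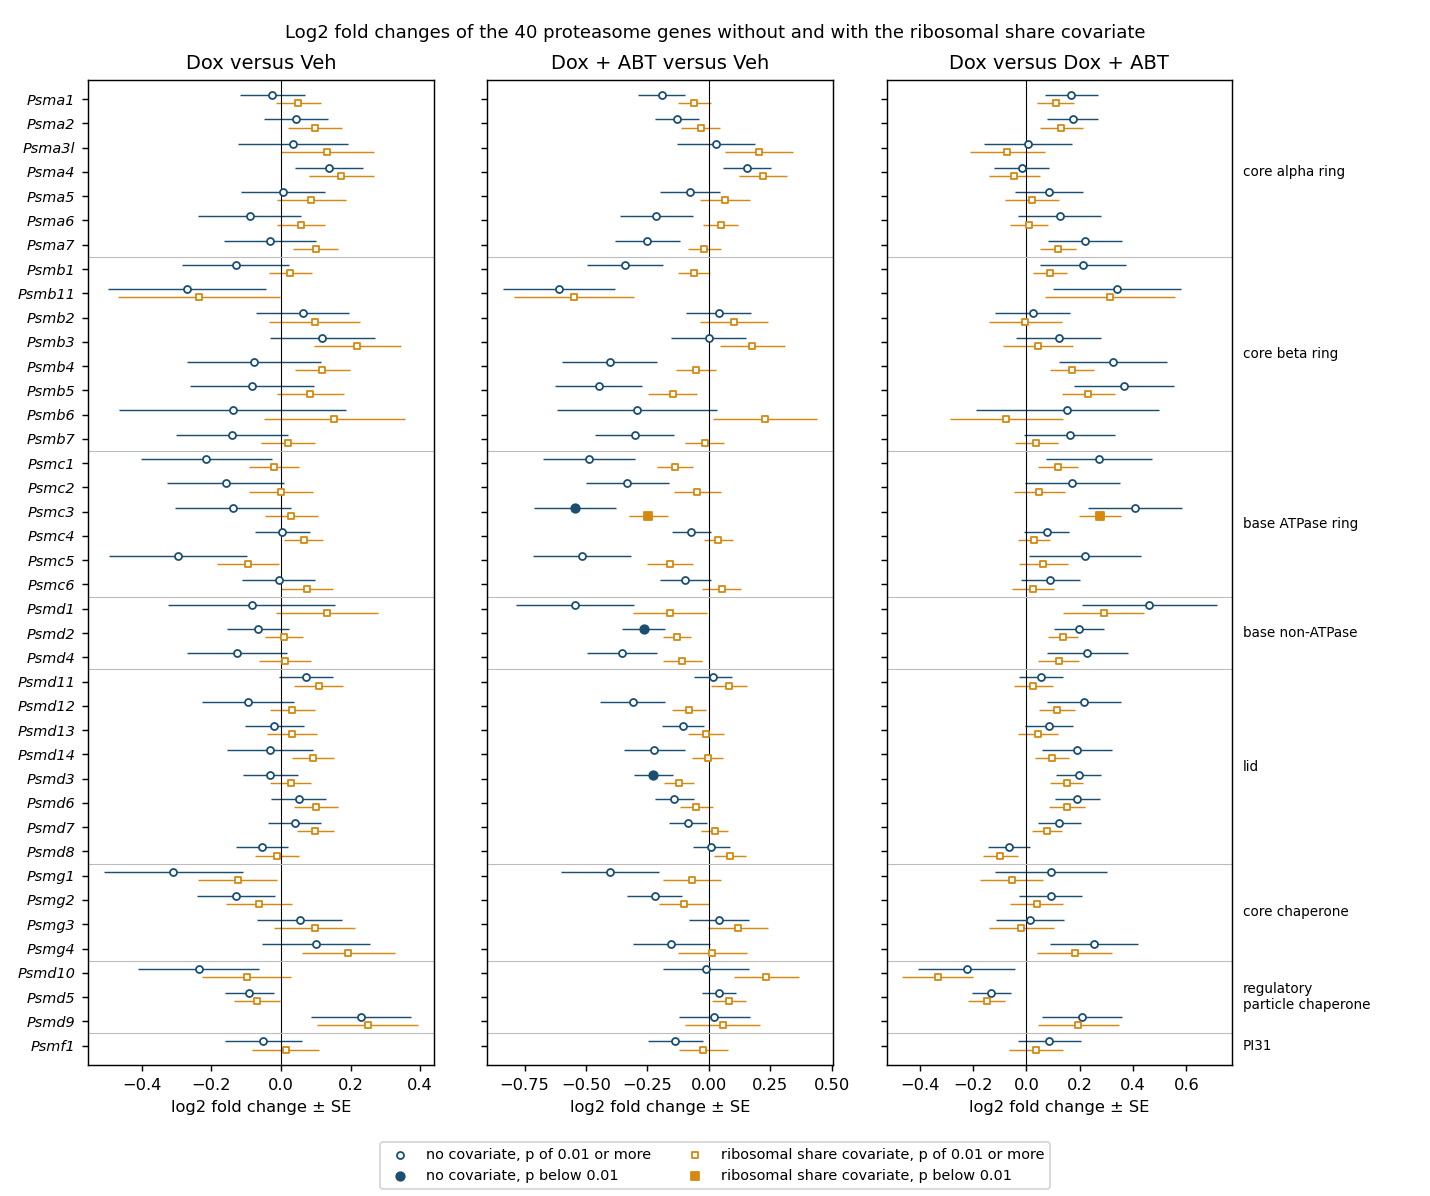
Log2 fold change ± SE (x axis) of each of the 40 proteasome genes, ordered by role (y axis), in Dox versus Veh, Dox + ABT versus Veh and Dox versus Dox + ABT; circles are the fit without covariate, squares the fit with the ribosomal protein share, and filled symbols have p below 0.01. In Dox + ABT versus Veh the median moved from -0.20 to -0.02 when the share was in the fit.

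The core and the regulatory particle were compared within each rat. As the mean over genes of log2 deviations from the mean of all rats, the core was at 0.07 ± 0.36 (SD, n = 10) in Veh rats, 0.04 ± 0.23 (n = 8) in Dox rats and -0.13 ± 0.10 (n = 8) with Dox + ABT. The regulatory particle was at 0.10 ± 0.27, 0.03 ± 0.29 and -0.15 ± 0.09. The core minus the regulatory particle was -0.02 ± 0.15 in Veh rats, 0.01 ± 0.14 in Dox rats and 0.02 ± 0.06 with Dox + ABT, so the groups differed by less than the spread between rats. The lowest difference, -0.34, and the lowest core level, -0.72, were those of Veh replicate 11. With the share in the fit, the median of the core minus that of the regulatory particle was 0.07, 0.03 and -0.05 on the log2 scale in the 3 comparisons, beside 0.02, 0.01 and -0.03 without it.

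**Figure D4:**
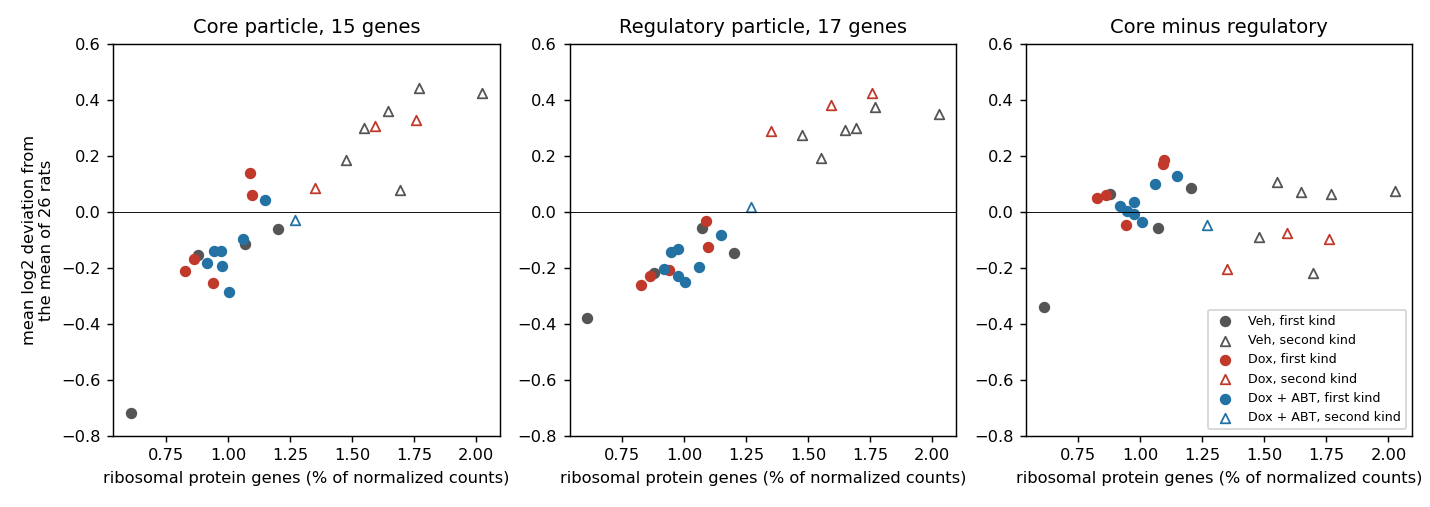
Mean log2 deviation of the 15 core genes, the 17 regulatory genes and their difference (y axis) in each of 26 rats against the ribosomal protein share of its library (x axis, % of normalized counts); colours are groups, filled circles the first and open triangles the second kind of library. Both particles lie higher in libraries with a higher share, and Veh replicate 11, at 0.609%, lies lowest for both.

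The genes that work with the proteasome were described from 6 lists with 45 measured genes. Without the share in the fit, 1 rose and 2 fell in Dox versus Veh, 3 rose and 2 fell in Dox + ABT versus Veh, and 2 rose and 0 fell in Dox versus Dox + ABT, all at p below 0.01. Over all tested genes, 1.02% rose and 1.85% fell in Dox versus Veh, 3.89% and 3.95% in Dox + ABT versus Veh, and 2.32% and 1.71% in Dox versus Dox + ABT, so the counts over the lists lay near the background. Of the 3 immunoproteasome subunits, which replace the catalytic subunits in immune cells and under interferon, Psmb9 fell in both treated groups. Psmb9 had 26.8, 48.7 and 78.5 in Veh rats, 15.3, 33.4 and 49.6 in Dox rats and 23.4, 27.7 and 41.5 with Dox + ABT. Its log2 fold changes from Veh were -0.61 ± 0.20 in Dox (adjusted p = 0.281) and -0.68 ± 0.20 in Dox + ABT (adjusted p = 0.109), and they shared the Veh rats. Given the share they were -0.51 ± 0.18 (p = 0.00883) and -0.50 ± 0.19 (p = 0.0141), and the first of these was above p 0.01 in 15 of 26 fits that left out 1 rat. The microglia markers Cx3cr1 (-0.64 ± 0.19) and Aif1 (-0.61 ± 0.18) were lower in Dox too, and the 4 microglia markers summed to 2048 to 4286 in Veh, 1760 to 3016 in the Dox group and 1923 to 3333 with Dox + ABT. None of the 4 was at 0, and their part in the Psmb9 value was not tested.

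Psmb8 and Psmb10 did not pass. Psmb8 had 37.4, 65.1 and 101 in Veh rats, 32.9, 47.3 and 84.6 in Dox rats and 39.0, 50.8 and 72.6 with Dox + ABT. Psmb10 had 204, 379 and 571 in Veh rats, 282, 319 and 497 in Dox rats and 249, 331 and 408 with Dox + ABT. Among the 4 activators that cap the core, Psme4 rose in Dox + ABT versus Veh, by 0.45 ± 0.15 (p = 0.00555, adjusted p = 0.115), and 5 of 8 Dox + ABT rats lay above every Veh rat. This call was lost in 8 of the 26 fits that each left out 1 rat. Given the share it was 0.28 ± 0.13 (p = 0.0420). Psme1 and Psme2, whose proteins form an activator induced by interferon, were at -0.13 ± 0.12 and -0.09 ± 0.18. The fourth activator, Psme3, was at -0.27 ± 0.12 (p = 0.0360), opposite in sign to Psme4, and all 8 Dox + ABT rats lay below its Veh median. Given the share Psme3 was at -0.09 ± 0.09 (p = 0.317).

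Adrm1, a ubiquitin receptor of the regulatory particle, fell in Dox + ABT versus Veh by 0.34 on the log2 scale (SE 0.10, p = 0.00207, adjusted p = 0.109), and it was the only 1 of 8 associated proteins and assembly factors called. Given the share, Adrm1 was at -0.21 ± 0.08 (p = 0.0130) and was not called. Among 14 regulators of proteasome gene transcription and import, Ddi2, the protease that activates Nfe2l1 (0.49 ± 0.16, p = 0.00444), and Nfyb, a subunit of NF-Y (0.30 ± 0.11, p = 0.00906), rose in Dox + ABT versus Veh. Over the 26 fits that each left out 1 rat, the call of Nfyb was lost in 14 and that of Ddi2 in 1. Ddi2 had a slope on the ribosomal share of -0.69 ± 0.11, opposite in sign to that of the proteasome genes. Given the share, Ddi2 was at 0.24 ± 0.11 and Nfyb at 0.22 ± 0.10, neither called.

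Nfe2l1 was not called in any comparison. It had 1919, 2225 and 2831 in Veh rats, 1674, 2187 and 4978 in Dox rats and 1676, 1726 and 2679 with Dox + ABT. In Dox + ABT, 6 of 8 rats lay below every Veh rat, and the log2 fold change was -0.27 ± 0.15 (limma p = 0.0768). Given the share it was -0.15 ± 0.14 (limma p = 0.303). In Dox versus Dox + ABT it was 0.35 ± 0.15 (p = 0.0288), and 0.30 ± 0.14 given the share (p = 0.0416). Maff, a small Maf partner of such factors, rose in Dox against both Veh (1.22 ± 0.44, p = 0.00937) and Dox + ABT (1.96 ± 0.46, p = 0.000221, adjusted p = 0.115), from low counts of 2.98 to 25.8 in Veh rats, 8.80 to 72.7 in Dox rats and 1.61 to 11.6 with Dox + ABT. Its call against Veh was lost in 16 of the 26 fits that each left out 1 rat, and that against Dox + ABT in 0. Given the share, Maff was at 1.40 ± 0.42 against Veh (p = 0.00253), and this call was lost in 0 of the 26.

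The ubiquitin gene Ubb was at 0.07 ± 0.13 in Dox versus Veh and at -0.13 ± 0.13 in Dox + ABT versus Veh, each within its error. None of the 6 genes of ubiquitin and its activation was called (limma), and 2 were lower at p below 0.05 in Dox + ABT versus Veh, where 11.4% of all tested genes were. Among 10 shuttle and unfolding factors, which bring substrates to the proteasome, Ubqln4 fell in Dox versus Veh (-0.31 ± 0.11, p = 0.00639, and -0.25 ± 0.09 given the share, p = 0.0103, not called) and Nsfl1c rose in Dox versus Dox + ABT (0.33 ± 0.11, p = 0.00534). Given the share, 4 of the 45 related genes were called higher in Dox than in Dox + ABT, beside 2.92% of all tested genes. They were Maff (1.82 ± 0.44, p = 0.000299), Nsfl1c (0.26 ± 0.07), Nploc4 (0.19 ± 0.06), both cofactors of the unfolding ATPase Vcp, and Adrm1 (0.22 ± 0.08). Over the 26 fits that each left out 1 rat, with the share, the call of Adrm1 was lost in 16 (p up to 0.0277) and that of Nploc4 in 1. Without the share, the call of Ubqln4 was lost in 8 and that of Nsfl1c in 6. Of the 45 related genes, 19 rose with the ribosomal share and 2 fell, where 19.4% of all tested genes rose and 16.2% fell.

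The calls depended on how libraries were weighted. With limma's array weights, which count libraries by their agreement with the fit, 18 members were lower in Dox versus Veh, beside 11% of all tested genes, and 23 in Dox + ABT versus Veh, beside 18.4%. The members' medians were then -0.25 and -0.34, beside -0.008 and -0.002 over all tested genes, with 39 and 38 of 40 members below 0, and the median for Dox versus Dox + ABT was 0.05. Leaving out Veh replicate 11 gave 12 members called in Dox + ABT versus Veh, and leaving out Veh replicate 10, Dox + ABT replicate 4 or Dox replicate 7 gave 7, 7 and 5, all of them lower. In these 4 fits 7.56%, 6.21%, 5.48% and 4.22% of all tested genes were called lower, so the share over all genes moved too. Leaving out Veh replicate 1, 2, 4 or 9 or Dox + ABT replicate 5 or 6 gave 1, beside 2.24 to 2.56% of all tested genes called lower.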

How the data were processed

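In Partek Flow, the authors mapped reads from an Ion Proton sequencer with STAR 2.5.3a (build rn6), normalized counts by median ratio and called genes with DESeq2. The deposited signal values are these normalized counts (24012 rows), summed here by gene identifier to 17910 genes (several rows for 6 members). Of low values, 71.8 to 82.5% were whole multiples (within 0.05) of 1 read, which gave the depth estimate, and no count model was run. Limma 3.58.1 (R 4.3.3) was fitted to log2(normalized count + 1) of 15595 genes (mean 5 or more), with variance trend and all 26 rats in 1 fit. A second fit added the log2 ribosomal protein share (76 genes). Calls used p below 0.01, as in the study, with Benjamini-Hochberg values beside them. The fits were tested on simulated data first. Library kinds come from the widest gap along the first principal component of within-group log2 values. Members, lists and tests were chosen with earlier results of these data known. All members were named, and values by group were given for the catalytic subunits, the 4 members with the smallest p per comparison and fit, the member with the highest mean of each role, fixed related genes, and the 3 of each related list with the smallest p past 0.01, of which 1 is not reported here. Alternatives were other pseudocounts, filters, scalings, weights, groups and covariates, the replicate block and leaving out each rat. Those for the slope, and leaving out rats from the fit with the share, were chosen after seeing the data. Near-identical or overlapping genes could share reads, and strand use in counting is not given in the sources used here.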

Additional observations from a re-analysis of the deposited data

Results flagged for a closer look

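Within-group ranges of the 40 members, 8 related genes, the ribosomal share and the core minus regulatory level were examined with Dixon's criterion in 150 groups of 8 or 10 rats, and 11 values stood apart. Chance marks about 1 in 20 such groups. Dox + ABT replicate 4, the only library of its group of the second kind, was the highest of its group for Psmc1 (3493, next 2760), Psmc5 (3103, next 2262), Psmd1 (2450, next 1949), Psmd2 (3902, next 3405), Psmd4 (1497, next 1186), Psme1 (550.3, next 459) and Nfe2l1 (2679, next 1923). Without this rat, 7 members were called in Dox + ABT versus Veh, all lower, beside 5.48% of all tested genes called lower. Dox replicate 1 was the lowest of its group for Psmd8 (851, next 989). Dox replicate 14 was the highest for Psmb8 (84.6, next 53.9), and Dox replicate 5 for Nfe2l1 (4978, next 2799). Veh replicate 11 was the lowest for Psme1 (274, next 469).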

How the results depend on the processing

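For Dox versus Veh, the count of 0 members called held under 12 alternatives and was 18 with array weights, 2 within the first kind of library and 1 with the replicate block, where 20.2%, 4.76% and 4.91% of all tested genes were called in either direction. For Dox + ABT versus Veh, every member called was lower, and the share of all tested genes called lower is given beside the count. The count of 3 was 1 with the ribosomal share in the fit (1.44%), 23 with array weights (18.4%) and 5 with the 2 compared groups alone (4.48%). It was 0 with the same library total (0.589%, and 12.3% higher), with the kind of library in the fit (0.731%) and within the first kind (0.5%). With the replicate block it was 7 (4.5%), and it was 2 to 3 under the other 7. For Dox versus Dox + ABT, the shares are again of all tested genes called in either direction. The count of 0 was 1 with the share (4.96%), 2 with array weights (10.3%) and 2 with the 2 groups alone (4.51%). It was 1 with the kind in the fit (4.76%) and 1 within the first kind (8.21%), and stayed 0 with the replicate block (2.58%). With array weights the medians were -0.25, -0.34 and 0.05 in the 3 comparisons. The median for Dox versus Veh turned positive, 0.008 to 0.08, with the share, the same library total or the kind of library in the fit and within each kind. Of the medians, that for Dox + ABT versus Veh moved by more than the spread between rats, to 0.084, within the first kind, and core minus regulatory in Dox versus Veh moved to -0.13 with array weights. The cause was not tested. The replicate block was void as a pairing: of 16 pairs with the same number 6 correlated above 0.1 (r from -0.22 to 0.44), and 1 of 23 rats correlated best with its own number. With each rat left out, there were 0 members called in Dox versus Veh (1.71% to 4.53% of all tested genes), 1 to 12 in Dox + ABT versus Veh, all lower (2.24% to 7.56% called lower), and 0 to 1 in Dox versus Dox + ABT (2.69% to 5.05%, 1 without Dox replicate 10), with medians of -0.10 to -0.01, -0.26 to -0.16 and 0.10 to 0.21, and core minus regulatory of -0.02 to 0.06, -0.02 to 0.06 and -0.04 to 0.0001. The count of members rising with the ribosomal share, examined under alternatives chosen after seeing the data, was 21 with the same library total (11.2% of all tested genes rose), 16 within the first kind (6.22%), 0 within the second (0.25%) and 22 with the replicate block (10.2%), 26 to 33 when each rat was left out (16.3% to 19.9%) and 30 to 34 otherwise. The log2 difference in ribosomal share was examined with each rat left out. It ranged from -0.32 to -0.13 (Dox versus Veh), -0.48 to -0.28 (Dox + ABT versus Veh) and 0.07 to 0.22 (Dox versus Dox + ABT). Within the first kind of library it turned in sign, to 0.07, 0.14 and -0.07 in these comparisons. Within the second kind it was -0.11 in Dox versus Veh. Psmc3 in Dox + ABT versus Veh kept p below 0.01 without each rat, with p up to 0.00671. Psmd2 lost it in 8 of 26 cases and Psmd3 in 12. Among related genes the call was lost for Psmb9 in Dox versus Veh in 2 cases (without Veh replicate 3 or Dox replicate 2), Ddi2 in 1 (without Veh replicate 9), Nsfl1c in 6, Psme4 in 8, Ubqln4 in 8, Nfyb in 14 and Maff in Dox versus Veh in 16, and in 0 for Adrm1 and Psmb9 in Dox + ABT versus Veh and Maff in Dox versus Dox + ABT. With the share in the fit, the Psmc3 call was lost in 2 of 26 cases for Dox + ABT versus Veh and in 0 for Dox versus Dox + ABT. Of the related calls in that fit, Adrm1 in Dox versus Dox + ABT was lost in 16 of 26 cases (p up to 0.0277), Psmb9 in Dox versus Veh in 15 (p up to 0.04998), Nploc4 in 1, and Nsfl1c and Maff in 0. No raw counts were used here, so precision at low counts, as for Psmb11, Psmb6 and Psmb9, is limited.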
